A study of Mus musculus with 48 samples.

Results

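The Vκ gene segments between 69.3 and 69.7 Mb of mouse chromosome 6 (mm9), the Jκ-proximal stretch of the fourth topological subdomain (sTAD4) of the Igκ light chain locus, were broken and joined to Jκ1 at 13 positions, out of 138 Vκ break sites found in the locus. Every junction mapped to these 400 kb was taken: 1029630 of the 7265223 junctions in the Vκ locus (chromosome 6, 67.5 to 70.66 Mb) over all libraries, or 14.2%. A break site was a position where at least 30 junctions of the pooled, arrested, WT signal end libraries ended, with no higher position within 50 bp and with CAC as the next bases on the signal side. A junction within 200 bp belonged to the nearest site, and 98.5% of the junctions in the region did. Since those libraries placed the sites, their own pile-up at the exact site is a description, not a test.

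Junctions were recovered by HTGTS-JoinT-seq, a linear-amplification method that sequences from a fixed bait end into whatever that end was joined to. The bait was the Jκ1 coding end (CE) or the Jκ1 signal end (SE). Cells were Abelson virus-transformed (vAbl) pro-B lines, either WT (clone B) or Ku70-/- (clone B1), so that each genotype is 1 clone and clone and genotype cannot be told apart. Each line was kept cycling, or was treated with STI-571 (3 µM, 96 h), an Abl kinase inhibitor that arrests vAbl cells in G0-G1 and turns on RAG, together with DMSO, with L67 (5 µM) or with L82-G17 (25 µM), both inhibitors of DNA ligases. This gives 16 groups of 3 libraries, 48 in all, each drawn at 500000 read pairs. Legends of the study describe its experiments as biological repeats, but the labels do not tie the 3 libraries of a group to separate cultures, so p-values measure the spread between these libraries, which may be technical in part.

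Depth differed widely. WT libraries with DMSO held 35048 to 56419 junctions in the region and Ku70-/- libraries with DMSO 14353 to 20633, whereas cycling libraries held 455 to 6468. With L82-G17, WT libraries held 30624 to 33128 (CE) and 16729 to 19669 (SE), below every WT DMSO library of the same bait. Ku70-/- libraries with L82-G17 held 15076 to 15825 (CE) and 11647 to 14189 (SE), and only the SE ones lay below DMSO. Replicate 1 of Ku70-/- with DMSO stood apart for both baits: its junctions in the region were copies of 145 (CE) and 130 (SE) distinct joints, with up to 3670 and 2325 copies of a single joint, whereas the other Ku70-/- libraries with DMSO held 1745 to 2254 distinct joints with at most 196 copies. The main shares of Ku70-/- with DMSO are therefore given with and without it, while the SDs of single sites include it unless stated. With 3 libraries against 3, the exact permutation test cannot go below p = 0.1, so for shares the text says whether the libraries of both groups overlapped.

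RAG1/2 pairs a Vκ with a Jκ and cuts each between the coding segment and its recombination signal sequence, a heptamer and a nonamer with a spacer between them. The cut leaves a hairpin-sealed coding end and a blunt signal end. In normal cells Ku binds the ends, the hairpin is opened, and non-homologous end joining fuses coding end to coding end with small losses and additions, and signal end to signal end precisely. Joining of a coding end to a signal end is called a hybrid joint. Without Ku, joining falls to alternative end joining, known for resected ends and for short stretches of shared bases (microhomology) at the joint. All 13 sites here point the same way, their signal end lying on the lower-coordinate side, so that V-J joining inverts the DNA between them and Jκ1. A CE-CE or SE-SE joint is then an inversion, a joint of the CE bait to a V signal end deletes the interval, and a joint of the SE bait to a V coding end closes it as a circle.

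The sites spanned 309680 bp, from Igkv4-61 at 69366886 to Igkv5-48 at 69676566, with gaps of 11.32 to 44.1 kb between neighbours, and lay 996 to 1306 kb from the Jκ1 break. The mm9 gene annotation names 10 of them: Igkv4-61, Igkv4-59, Igkv4-58, Igkv4-57-1, Igkv4-57, Igkv4-56, Igkv4-55, Igkv4-53, Igkv4-50 and Igkv5-48, each a V segment of the κ light chain, transcribed from the minus strand, whose annotated 3′ end lies at or within 3 bp of the break. RefSeq lists Igkv4-56 as a pseudogene. The other 3 sites, at 69413187, 69581641 and 69631399, lie in no annotated gene. Between the same neighbours RefSeq (whose coordinates are of a later build) lists Igkv4-60 for the first, Igkv4-54 and the pseudogene Igkv13-54-1 for the second, and Igkv4-51 for the last; only the gene order was compared, so the sites are called by position here.

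The sequences at the break show how alike these segments are. Each line gives the last 20 coding bases in lower case, then the heptamer in capitals, the spacer in lower case and the nonamer in capitals, 5′ to 3′ on the coding strand; the Jκ1 line is written in the same direction from its own coding end, so that heptamers can be compared.
Jκ1: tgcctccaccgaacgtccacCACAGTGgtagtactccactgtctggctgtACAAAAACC
Igkv4-50 (chr6:69650733-69650780, minus strand): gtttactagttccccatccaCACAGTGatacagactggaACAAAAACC
Igkv4-61 (chr6:69366859-69366906, minus strand): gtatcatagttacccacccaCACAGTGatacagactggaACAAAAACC
Igkv4-55 (chr6:69557241-69557288, minus strand): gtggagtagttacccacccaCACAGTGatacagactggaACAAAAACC
Igkv4-53 (chr6:69598790-69598837, minus strand): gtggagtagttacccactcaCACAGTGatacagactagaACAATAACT
Igkv4-58 (chr6:69450220-69450267, minus strand): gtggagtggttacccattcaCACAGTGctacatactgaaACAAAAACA
Site at 69631399 (chr6:69631372-69631419, minus strand): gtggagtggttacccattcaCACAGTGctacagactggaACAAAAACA
Igkv5-48 (chr6:69676539-69676586, minus strand): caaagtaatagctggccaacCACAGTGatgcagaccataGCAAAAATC

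All 13 sites had the heptamer CACAGTG, which 111 of the 138 sites of the locus (80.4%) also had, and 8 of 13 had the nonamer ACAAAAACC, against 39 of 138 (28.3%). The sites other than Igkv5-48 form a family. Over 100 bases on the coding side pairs of these 12 shared 85 to 97% of bases (median 91%, 66 pairs), and over 100 bases on the signal side 59 to 99% (median 90%). Igkv5-48 shared 19 to 22% and 35 to 40% with them. The prey part of a read can map to a near-identical copy, so the division of junctions among the 12 is uncertain to an extent that the files do not show.

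In arrested cells the region took 10.7 to 17.9% of Vκ joining, with a larger share from the coding end than from the signal end in WT. From the CE bait, WT libraries with DMSO had 15.6%, 15.8% and 15.2% of the Vκ junctions in the region (15.5% ± 0.281, SD, n = 3), and Ku70-/- libraries 16.04%, 12.9% and 12.9% (14.0% ± 1.80, n = 3). The high Ku70-/- value is that of the low-complexity replicate 1, and without it the mean was 12.9% ± 0.0176 (n = 2), below every WT library. With it the genotypes overlapped (difference -1.55 points, p = 0.4, exact permutation test, two-sided, as for all shares below). With each distinct joint counted once the shares were 19.5%, 19.6% and 19.01% in WT and 15.6%, 15.1% and 15.5% in Ku70-/-, without overlap (-3.96 points, exact p = 0.1).

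From the SE bait, WT libraries with DMSO had 10.9%, 10.7% and 11.4% (10.997% ± 0.367, n = 3), all below the CE libraries (difference -4.51 points, exact p = 0.1). Ku70-/- libraries had 11.4%, 13.7% and 13.7% (12.9% ± 1.32, n = 3). Replicate 1 was the lowest of these and lay within the WT range (exact p = 0.2), and the mean without it was 13.7% ± 0.0180 (n = 2). The Ku70-/- mean was thus below WT from the CE bait and above WT from the SE bait both with and without replicate 1, and leaving it out removed the overlap. Counted once the SE shares were 12.7%, 13.2% and 12.1% in WT and 13.5%, 16.4% and 15.9% in Ku70-/-, without overlap (+2.60 points, exact p = 0.1). With all junctions of a library as the denominator in place of those in the Vκ locus, the difference was -4.24 points (CE, no overlap) and -0.477 points (SE, with overlap), so for the SE bait its direction rests on the denominator.

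Both ligase inhibitors were tested beside DMSO, at different doses, so their values are given side by side and not compared with each other. In WT, L82-G17 went with a higher share of the region in every library: 17.1%, 17.9% and 16.7% from the CE bait (+1.71 points over DMSO, exact p = 0.1) and 14.2%, 13.6% and 13.5% from the SE bait (+2.79 points, p = 0.1). With each distinct joint counted once the L82-G17 difference was +0.491 points from the CE bait, with overlap, and +1.27 points from the SE bait, without overlap. The adjoining parts of the locus also had higher shares in these libraries: the distal neighbours (68.88 to 69.3 Mb) went from 10.8 to 11.03% with DMSO to 11.6 to 12.6% from the CE bait and from 7.61 to 7.74% to 10.1 to 10.5% from the SE bait, and the proximal neighbours (69.7 to 70.1 Mb) from 16.7 to 17.4% to 17.7 to 18.03% and from 14.2 to 14.7% to 15.2 to 15.96%, all without overlap. L67 shares in WT were 15.9%, 16.5% and 16.1% from the CE bait, above every DMSO library (+0.671 points, exact p = 0.1), and 11.8%, 12.04% and 11.3% from the SE bait, which overlapped DMSO (+0.731 points, p = 0.2). Counted once, the L67 difference from the CE bait was +0.352 points, with overlap. The distal neighbours were also higher with L67 in WT, at 11.97 to 12.2% (CE) and 9.66 to 10.2% (SE), without overlap with DMSO. The proximal neighbours, at 17.4 to 17.5% (CE) and 14.3 to 15.2% (SE), overlapped DMSO. In Ku70-/- the region share differed from DMSO by -1.14 (L67) and +0.569 points (L82-G17) from the CE bait. Both inhibitors overlapped DMSO there (exact p = 0.4 and 0.8). From the SE bait the differences were +1.201 and +1.53 points, without overlap for L67 (exact p = 0.1) and with overlap for L82-G17 (p = 0.3). The L82-G17 value from the CE bait changed sign between the 2 flow cells of the libraries (+0.637 and -0.0377 points). Without replicate 1 of DMSO the 4 values were -0.0988, +1.61, +0.440 and +0.766. For L82-G17 from the CE bait the overlap came from that replicate (16.04%). The other DMSO libraries (12.9% and 12.9%) lay below every L82-G17 library (14.8%, 14.9% and 14.0%). With each distinct joint counted once the 4 values were +0.419, +2.02, +1.65 and +0.991. Of these, L82-G17 from the CE bait and L67 from the SE bait were without overlap. The inhibitor effect was not shown to differ between genotypes by the permutation test of the difference itself (p from 0.06 to 0.795 over 4 comparisons, adjusted 0.24 to 0.795), which does not show that the effects were alike.

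Cycling cells, in which few V-J joints form, gave the region its largest shares. WT had 18.3%, 20.1% and 20.98% from the CE bait and 30.4%, 24.7% and 26.5% from the SE bait, all above the arrested DMSO libraries (exact p = 0.1 each). The proximal neighbours of WT moved likewise from the SE bait (14.4% ± 0.230 with DMSO, 27.6% ± 2.01 in cycling cells) but were lower in cycling cells from the CE bait (17.04% ± 0.342 and 14.99% ± 0.619), and the distal neighbours were higher in cycling cells from both (10.95% ± 0.114 and 12.2% ± 0.622 from the CE bait, 7.66% ± 0.0686 and 10.9% ± 1.54 from the SE bait). Ku70-/- had 18.6%, 20.2% and 21.02% (CE) and 28.9%, 15.6% and 18.6% (SE), again all above DMSO (exact p = 0.1). With all junctions as the denominator DMSO minus cycling was -3.36 (CE) and -12.6 points (SE) in WT, still without overlap, but -1.40 (CE) and +2.06 points (SE) in Ku70-/-, with overlap, so there the SE direction turned. Cycling libraries held 44 to 396 distinct joints in the region, so each rests on few events, and in Ku70-/- many cycling junctions lay off the break sites, as described further on. With only junctions at break sites in numerator and denominator, DMSO minus cycling in Ku70-/- was -3.11 points from the CE bait, with overlap (exact p = 0.2). From the SE bait it was -7.31 points, without overlap (exact p = 0.1).

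**Figure D1:**
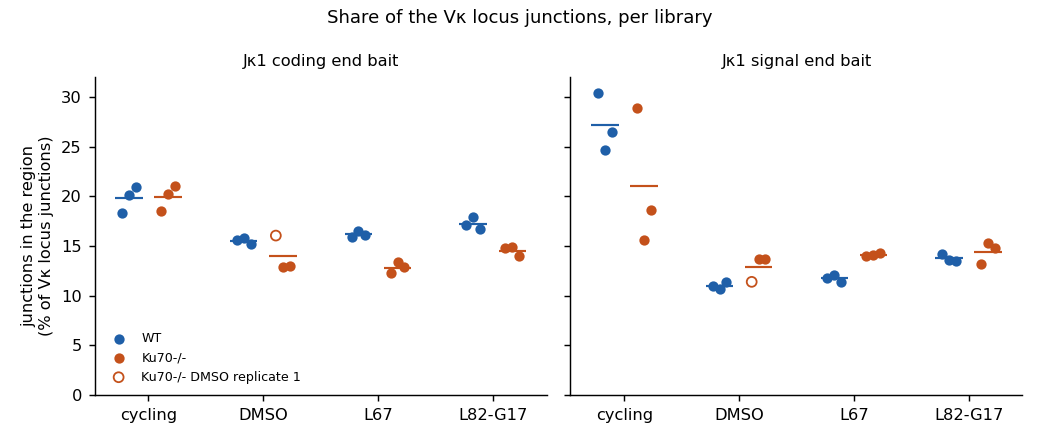
Share of the Vκ locus junctions that lie in the region (percent, y axis) for each library, by treatment (x axis), with the CE bait on the left and the SE bait on the right; dots are libraries, bars are means of 3, and the open circle is Ku70-/- DMSO replicate 1. Arrested libraries lie between 10.7% and 17.9%, and all but 1 of the cycling libraries lie above 17.9%.

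Within the region, Igkv4-50 was the most used segment in 3 of the 4 DMSO groups. From the CE bait in WT it took 2.79%, 2.81% and 2.64% of all Vκ junctions (2.75% ± 0.0942, n = 3), rank 4 among the 138 sites. In Ku70-/- it took 1.91%, 2.66% and 2.65% from the CE bait and 3.67%, 3.00% and 3.31% from the SE bait, rank 10 and rank 6 in the locus. From the SE bait in WT it took 1.30%, 1.28% and 1.22%, lower than with the CE bait in every library, and had rank 24. The Ku70-/- excess over WT from the SE bait was 2.62-fold but missed the threshold with all groups in the fit (limma, adjusted p = 0.143) and passed it in a fit of those 2 groups alone (adjusted p = 0.0158), which called 11.5% of all sites. Without replicate 1 it was 2.49-fold (adjusted p = 0.265, limma).

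After Igkv4-50, the order from the CE bait in WT with DMSO was Igkv4-61 (1.86% ± 0.0584), Igkv4-55 (1.70% ± 0.0914), Igkv4-57-1 (1.70% ± 0.0258), the site at 69581641 (1.39% ± 0.0829), Igkv4-58 (0.906% ± 0.0593), the site at 69631399 (0.901% ± 0.0977) and Igkv4-59 (0.874% ± 0.0228). Then came the site at 69413187 (0.828% ± 0.0282), Igkv4-53 (0.719% ± 0.00982), Igkv4-57 (0.707% ± 0.0241), the pseudogene Igkv4-56 (0.669% ± 0.0457) and Igkv5-48 (0.451% ± 0.0323). Igkv4-55 and Igkv4-57-1 did not differ beyond their spread, nor did neighbours from Igkv4-58 to Igkv4-59, nor those from Igkv4-53 to Igkv4-56. The pseudogene, whose heptamer and nonamer are those of its neighbours, took 0.720%, 0.657% and 0.631%, next to segments listed as functional.

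From the SE bait in WT with DMSO the order was another. Igkv4-58 led with 1.67%, 1.56% and 1.61%, above Igkv4-50 in every library. Igkv4-50 was second by its mean (1.27% ± 0.0394), followed by the site at 69631399 (1.14%, 1.08% and 1.47%), Igkv4-57-1 (1.04%, 1.12% and 1.201%) and Igkv4-55 (0.881%, 1.06% and 0.829%). Igkv4-61, second from the CE bait, took 0.620%, 0.627% and 0.523%. Igkv5-48 was last from either bait in WT, with 0.140%, 0.201% and 0.236% here. The CE bait reads the V-J coding joint and the SE bait the reciprocal signal joint, and in an inversion both stay on the chromosome.

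**Figure D2:**
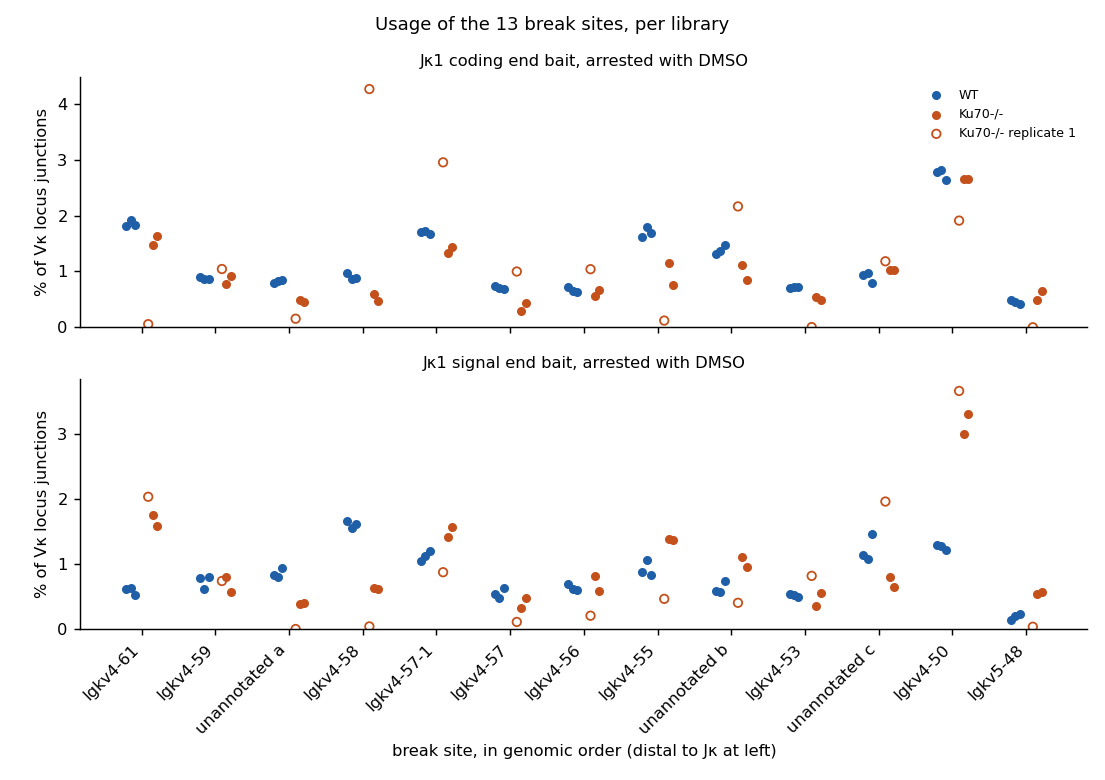
Junctions at each of the 13 break sites as a percent of the Vκ locus junctions (y axis) in the DMSO libraries, by bait and genotype, with the sites in map order. Dots are libraries and open circles are Ku70-/- DMSO replicate 1. The unannotated sites at 69413187, 69581641 and 69631399 are a, b and c. By group mean Igkv4-50 is the highest site except with the SE bait in WT, where Igkv4-58 is.

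The test of each site's share (limma on the log2 share of the locus junctions, with 1 added to each site's count; 8 groups of a bait in 1 fit) covered 111 sites for the CE bait and 110 for the SE bait, and all 13 members passed its filter of 50 junctions on average. For Ku70-/- against WT with DMSO from the CE bait, 2 of 13 members were called, beside 14.4% of all sites tested. Both fell in Ku70-/-: Igkv4-55 to 0.277-fold (log2 -1.85, SE 0.542, adjusted p = 0.0279) and the site at 69413187 to 0.389-fold (log2 -1.36, SE 0.430, adjusted p = 0.0451). Igkv4-55 had 1.62%, 1.80% and 1.69% in WT and 0.120%, 1.14% and 0.755% in Ku70-/-, and replicate 1 was the lowest library by far; the site at 69413187 had 0.796%, 0.836% and 0.851% against 0.153%, 0.487% and 0.443%. In both the genotypes did not overlap, but without replicate 1 neither call was kept and the folds were 0.546 and 0.562 (limma, adjusted p = 0.0770 and 0.244). The median member had a log2 difference of -0.21, and the median of all sites tested was -0.59. Both medians include replicate 1. The sites were placed from WT libraries, so sites used mainly in Ku70-/- can be missing from the median of all sites.

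From the SE bait, 2 of 13 members were called between the genotypes, beside 17.3% of all sites tested, in opposite directions. Igkv4-61 rose from 0.620%, 0.627% and 0.523% in WT to 2.04%, 1.75% and 1.59% in Ku70-/-, 3.03-fold (log2 1.60, SE 0.320, adjusted p = 0.00135). The call was kept under all 17 alternatives that were run (adjusted p from 1.37e-07 to 0.0132), and without replicate 1 the rise was 2.84-fold (adjusted p = 0.00480). Igkv4-58, the leading site of the region in WT signal joints with DMSO, fell to 0.158-fold (log2 -2.66, SE 0.787, adjusted p = 0.0276), with 0.0422%, 0.632% and 0.619% in Ku70-/-. Without replicate 1 its log2 difference was -1.37 and the call was lost (limma, adjusted p = 0.132). Every WT library lay above every Ku70-/- library for Igkv4-58 and below for Igkv4-61. The median member had a log2 difference of 0.06, and the median of all sites was -0.43. These medians also include replicate 1 and cover only sites placed from WT libraries.

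Usage from the 2 baits was compared within a genotype. In WT with DMSO 1 member was called, beside 7.27% of all sites: the site at 69581641 was lower from the SE bait (0.590%, 0.577% and 0.739%) than from the CE bait (1.31%, 1.37% and 1.48%), 0.456-fold (adjusted p = 0.0326). Igkv4-61 was 0.317-fold with no overlap of libraries (adjusted p = 0.0812), and passed once both low-complexity libraries were left out of the fit (adjusted p = 4.22e-06). With only the WT DMSO libraries of both baits in the fit 10 members were called, beside 58.8% of all sites, 8 lower and 2 (Igkv4-58 and the site at 69631399) higher from the SE bait. In Ku70-/- no member was called between the baits, beside 6.36% of all sites; 5 members and 30 sites had an unadjusted p under 0.05.

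More sites were called between arrested and cycling cells than in the other comparisons. In WT from the SE bait 6 of 13 members were lower with DMSO than in cycling cells, beside 44.5% of all sites: Igkv4-61 (0.251-fold, adjusted p = 7.16e-05), Igkv4-59 (0.341-fold, 0.00764), Igkv4-57-1 (0.450-fold, 0.0127), Igkv4-56 (0.295-fold, 0.00466), the site at 69581641 (0.347-fold, 0.00295) and Igkv4-50 (0.261-fold, 0.0244). All 13 members had a negative difference there, with a median log2 of -1.55, while the median over all sites was 0.92; as given above, the shares of the neighbours on both sides were lower with DMSO there too. In WT from the CE bait no member was called, beside 20.7% of all sites; 2 members and 39 sites had an unadjusted p under 0.05, and the fit of those 2 groups alone called 3 members (Igkv4-59, Igkv5-48 and the site at 69413187), all lower with DMSO, beside 32.7% of all sites.

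In Ku70-/- from the CE bait 3 members were higher with DMSO than in cycling cells, beside 42.3% of all sites: Igkv4-57 (6.59-fold, adjusted p = 0.00894), the site at 69581641 (1.84-fold, 0.0425) and the site at 69631399 (2.21-fold, 0.0458). Of the 13 members, 7 had a positive difference, with a median log2 of 0.03, while the median over all sites was 0.47. The denominator counts junctions off the sites too, which were many in cycling Ku70-/- cells. Igkv4-57 had 0.0555%, 0% and 0.445% in cycling cells and 0.998%, 0.289% and 0.431% with DMSO, so these ranges overlapped. Without replicate 1 Igkv4-57 was still called (4.66-fold, adjusted p = 0.0305) and the other two were not, at 1.41-fold (0.155) and 2.10-fold (0.0736), the latter close to its value with replicate 1. That fit called 5 members, beside 52.7% of all sites, in both directions: Igkv4-53 (2.49-fold, adjusted p = 0.0139) and Igkv4-55 (1.76-fold, 0.0305) were also higher with DMSO, and Igkv4-58 (0.600-fold, 0.0287) and Igkv4-57-1 (0.631-fold, 0.00553) were lower. With each joint counted once 1 member was higher and 2 were lower, beside 57.8% of all sites. From the SE bait 2 members were lower with DMSO, beside 33.6% of all sites: Igkv4-61 (0.532-fold, adjusted p = 0.0334) and the site at 69581641 (0.400-fold, 0.00905), both kept without replicate 1 (0.0293 and 0.0408). In a fit of the 2 groups alone none of these 5 calls was kept (adjusted p from 0.336 to 0.612). Cycling values of single members in Ku70-/- ranged widely, as with Igkv4-50 from the SE bait at 3.68%, 0.205% and 3.98%.

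For the inhibitors no member was called in any of the 8 comparisons. In WT the share called was 0% of all sites for L67 and 0% for L82-G17 from the CE bait, and 0% and 0% from the SE bait; unadjusted p under 0.05 was reached by 0 members (0 sites) and 0 members (2 sites) for the CE bait, and by 0 members (0 sites) and 0 members (1 site) for the SE bait. In Ku70-/- it was 0% for L67 and 0% for L82-G17 from the CE bait, and 0% for L67 and 0.909% for L82-G17 from the SE bait; unadjusted p under 0.05 was reached by 1 and 3 members (8 and 19 sites) and by 1 and 2 members (13 and 16 sites). A fit of WT L82-G17 and DMSO alone did call members. From the CE bait it called 6, beside 35.7% of all sites, all higher: Igkv4-58 (1.69-fold, adjusted p = 0.00854), the site at 69631399 (1.56-fold, 0.00808), the site at 69413187 (1.38-fold, 0.0241), Igkv5-48 (1.30-fold, 0.0152), Igkv4-53 (1.27-fold, 0.0126) and Igkv4-57 (1.205-fold, 0.0243). With the SE bait it called 1, Igkv4-58 (1.61-fold, adjusted p = 0.0270), beside 9.73% of all sites.

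Igkv4-58 had the largest of these folds, and its library values did not overlap in WT. From the CE bait it took 0.974%, 0.865% and 0.879% with DMSO and 1.72%, 1.62% and 1.28% with L82-G17 in WT. With the SE bait it took 1.67%, 1.56% and 1.61% and then 2.76%, 2.53% and 2.53%. With L67 the values were 0.809%, 0.954% and 0.862% (CE) and 1.53%, 1.80% and 1.498% (SE), within or near the DMSO range. In Ku70-/- with L82-G17 it took 1.14%, 1.06% and 0.959% (CE) and 1.21%, 1.11% and 0.856% (SE), above DMSO replicates 2 and 3 (0.589% and 0.478%; 0.632% and 0.619%) but, for the CE bait, below replicate 1 (4.26%).

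In WT coding joints, the pile-ups stood a few bases inside the coding end. The commonest position was 1 base in for Igkv4-53, Igkv4-57-1, Igkv4-58 and the site at 69631399, and 3 bases in for Igkv4-55, Igkv4-56, Igkv4-57, Igkv4-59, Igkv4-61 and the sites at 69413187 and 69581641. The last coding bases of the first 4 read cactca or cattca, and those of the others caccca. Over the 12 alike sites, loss of 1, 3 and 2 bases made up 21.1% ± 6.53, 19.1% ± 5.00 and 16.7% ± 2.21 of the coding ends (SD over 12 sites). The pile-up with the highest mean was that of Igkv4-50 (catcca) at 69650763, 2 bases in, with 0.599%, 0.613% and 0.532% of all Vκ junctions in the 3 WT libraries, and Igkv4-57-1 at 69494354 was next (0.447%, 0.528% and 0.544%) and the higher of the pair in replicate 3.

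Igkv5-48 was trimmed least. In WT 63.1% ± 4.32 (n = 3) of its CE bait junctions held the whole coding end, at 69676567, whereas among the other 12 sites this share was 3.54 to 10.9%. Its last coding bases (ccaac) are unlike the others, and its median loss was 0 bases in each library, against 2 or 3. In Ku70-/- the share with the whole end was 3.18% ± 2.73 (n = 2), since replicate 1 had no junction at Igkv5-48 from this bait.

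In WT signal joints the pile-up was a single position at each site: 92.4 to 98.8% of a site's SE bait junctions ended at the exact site, and the 3 highest were Igkv4-58 at 69450247 (1.65%, 1.49% and 1.60% of all Vκ junctions), the site at 69631399 (1.11%, 1.08% and 1.45%) and Igkv4-50 at 69650760 (1.22%, 1.22% and 1.18%). The Jκ1 signal end was whole in 96.1%, 96.3% and 96.1% of junctions. The Jκ1 coding end was whole in 31.4%, 31.6% and 32.5%, and 94.4 to 94.5% of junctions had lost at most 3 bases of it.

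With DMSO, Ku70-/- ends were resected on both sides of the joint. From the CE bait the Jκ1 coding end had lost a median of 13, 15 and 14 bases and the V coding end 11, 11 and 13, against 2 and 3 in every WT library with DMSO. With the SE bait the Jκ1 signal end had lost 4, 10 and 10 bases and the V signal end 2, 8 and 8, against 0 in WT; replicate 1 gave the low values. Losses of coding ends were spread over many positions, the commonest over the 12 alike sites being 11 (7.60% ± 2.43), 5 (7.24% ± 4.32) and 14 bases (6.69% ± 5.59), computed without replicate 1. A loss of 0 bases was still the commonest single value at V signal ends from the SE bait (12.2% ± 6.71).

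The share of junctions within 10 bp of the break (of those within 100 bp) summarises this. WT had 96.1%, 96.6% and 96.5% from the CE bait and 99.8 to 100% from the SE bait, and Ku70-/- had 32.9%, 44.2% and 43.0% (40.03% ± 6.23; 43.6% ± 0.808 without replicate 1) and 64.1%, 51.6% and 53.9% (56.5% ± 6.65; 52.7% ± 1.67). The genotypes did not overlap from the CE bait (exact p = 0.1). From the SE bait the WT libraries had placed the sites, so those values are a description with no test. In Ku70-/- from the SE bait the share was lower with L67 (46.9%, 44.8% and 45.5%) and with L82-G17 (42.7%, 48.7% and 44.6%) than in any DMSO library (exact p = 0.1 each). With the CE bait neither inhibitor's values separated from all 3 DMSO libraries, with 39.998% ± 2.06 (L67, exact p = 1) and 37.4% ± 2.31 (L82-G17, p = 0.6). That overlap came from replicate 1 of DMSO (32.9%). The other DMSO libraries (44.2% and 43.0%) lay above every L67 library (37.8%, 41.8% and 40.4%) and every L82-G17 library (37.6%, 39.7% and 35.1%).

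**Figure D3:**
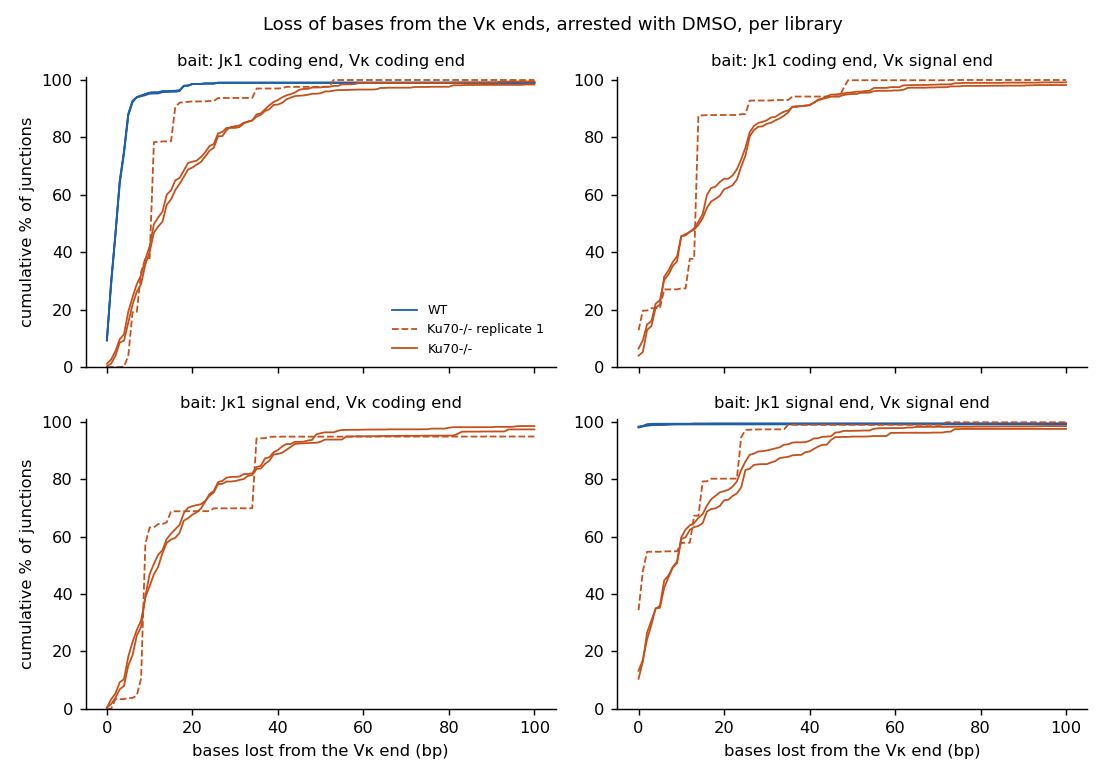
Bases lost from the V end (x axis, bp) against the cumulative share of junctions (y axis, percent) in the DMSO libraries, by bait and V end. Lines are libraries and the dashed line is Ku70-/- DMSO replicate 1. WT is drawn only for like ends (CE to CE or SE to SE). Curves of WT coding ends rise within a few bases and those of WT signal ends at 0, while Ku70-/- curves rise over the first 50 bp.

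Hybrid joints were rare in WT and common in Ku70-/-. Of the CE bait junctions at the 13 sites, 0.187%, 0.124% and 0.0820% in WT went to a V signal end, and 48.2%, 37.5% and 37.9% in Ku70-/- (41.2% ± 6.05; 37.7% ± 0.298 without replicate 1). Of the SE bait junctions, 0.907%, 0.966% and 0.687% in WT went to a V coding end, and 59.1%, 56.0% and 59.2% in Ku70-/- (58.1% ± 1.82; 57.6% ± 2.24). No library overlapped (exact p = 0.1 each). With the SE bait in Ku70-/- with DMSO, joints to a V coding end outnumbered those to a V signal end in every library.

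Among single sites of Ku70-/- with DMSO the hybrid share ran from 19.9% ± 16.6 (the site at 69413187) to 51.3% ± 33.8 (Igkv4-58) from the CE bait, and from 35.0% ± 23.0 (Igkv4-59) to 75.1% ± 18.9 (Igkv4-57) from the SE bait. These errors include the low-complexity replicate 1, and neighbours in this order did not differ beyond them. In WT the highest was Igkv5-48 from the SE bait, at 5.72% ± 8.30, on the fewest junctions.

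L82-G17 went with fewer hybrids in Ku70-/-. With the CE bait the share was 23.0%, 22.2% and 27.4% (-17.0 points against DMSO, exact p = 0.1; -13.5 points without replicate 1), and from the SE bait 48.7%, 46.7% and 48.8% (-10.01 points, p = 0.1; -9.50 points without replicate 1). With L67 the shares overlapped DMSO: 40.4%, 38.4% and 40.5% (CE, exact p = 1) and 65.1%, 58.5% and 61.3% (SE, p = 0.3). From the CE bait that overlap came from DMSO replicate 1 (48.2%), and replicates 2 and 3 (37.5% and 37.9%) lay below every L67 library. From the SE bait the overlap remained without replicate 1. In WT the CE bait share with L82-G17 was 0.390%, 0.469% and 0.191%, above DMSO in every library (exact p = 0.1), and the SE bait share overlapped (p = 0.8). The CE bait gap was small, 0.1911% against 0.1870% in the nearest DMSO library. It rests on 63 to 145 hybrid junctions a library with L82-G17 and 43 to 105 with DMSO, copies included. In cycling Ku70-/- cells the hybrid share was 50.1%, 49.6% and 41.1% from the CE bait but 21.2%, 11.8% and 25.3% from the SE bait.

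**Figure D4:**
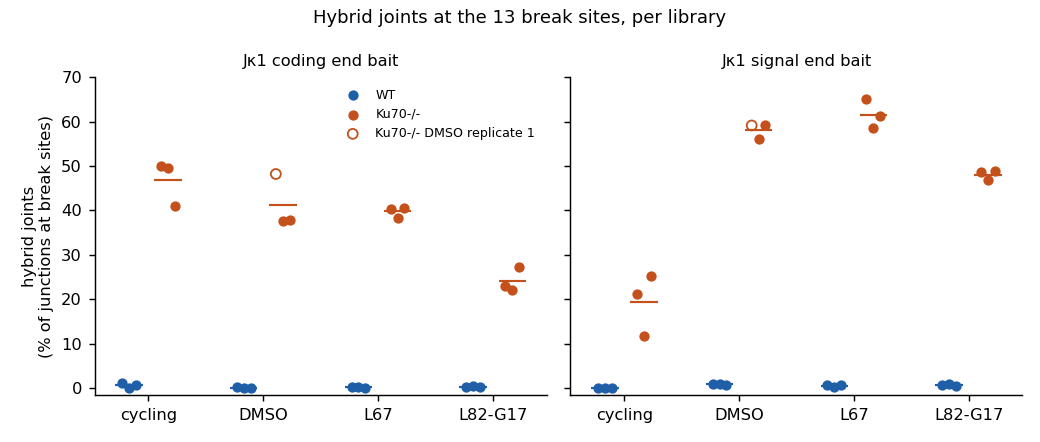
Hybrid joints (coding end to signal end) as a percent of the junctions at the 13 sites (y axis) for each library, by treatment (x axis) and bait; dots are libraries, bars are means of 3, and the open circle is Ku70-/- DMSO replicate 1. WT libraries lie at or below 1.22%, and Ku70-/- L82-G17 libraries lie below the DMSO libraries for both baits.

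Joint structure was read from the overlap or gap between bait and prey in each read. WT coding joints were mostly direct (75.1%, 75.8% and 76.4%), with an insertion in 14.6% of each library, a single shared base in 8.88%, 8.05% and 7.66%, and microhomology over 1 bp in 1.38%, 1.51% and 1.34%. WT signal joints were direct in 96.9%, 97.0% and 97.4%, with insertions in 2.00%, 1.62% and 1.65%.

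In Ku70-/- microhomology over 1 bp was found in 25.5%, 14.99% and 17.8% of junctions from the CE bait (19.4% ± 5.46; 16.4% ± 1.99 without replicate 1) and in 44.4%, 21.3% and 27.1% from the SE bait (30.9% ± 12.01; 24.2% ± 4.08), above every WT library (exact p = 0.1 each). Insertions from the CE bait were below WT in every library, at 0.485%, 3.96% and 3.33% (exact p = 0.1; 3.64% ± 0.445 without replicate 1); from the SE bait, at 0.259%, 2.83% and 2.14%, they lay on either side of WT (p = 1; 2.48% ± 0.485 without replicate 1). Direct joints were at 32.8%, 52.4% and 49.3% (CE) and 34.4%, 55.7% and 52.2% (SE), below WT (-30.9 and -49.7 points, exact p = 0.1 each), and without replicate 1 at 50.9% ± 2.21 and 53.9% ± 2.48. That direction holds for junctions as sequenced: with identical joints counted once, the direct share was higher in Ku70-/- by 15.7 and 7.19 points. WT junctions repeat a limited set of joints: the 102 (CE) and 20 (SE) exact joints found in all 3 cycling WT libraries held 56.2 to 57.0% and 93.8 to 94.7% of the WT junctions of the region with DMSO.

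In WT, L67 and L82-G17 libraries had more microhomology than DMSO from the CE bait (1.65% ± 0.126 and 1.94% ± 0.416 against 1.41% ± 0.0869) and less from the SE bait (0.475% ± 0.200 and 0.532% ± 0.216 against 1.00% ± 0.238), without overlap (exact p = 0.1 each). The lowest L67 library from the CE bait (1.514%) was barely above the highest DMSO library (1.507%). The SE shares rest on few joints: with DMSO the libraries held 332, 257 and 232 distinct joints of any kind in the region. In DMSO replicate 3, 63.9% of the 255 junctions to V coding ends had an overlap of 4 bp. Over the 6 microhomology differences without overlap, the genotype ones included, 13 of 18 alternatives kept no overlap. Insertions from the CE bait in WT were at 12.4%, 10.5% and 13.3% with L82-G17, below every DMSO library (exact p = 0.1), and overlapped with L67 (p = 1). In Ku70-/- all inhibitor values for microhomology, insertions and direct joints overlapped those with DMSO (exact p from 0.2 to 1). For microhomology from the CE bait that overlap came from DMSO replicate 1 (25.5%). Replicates 2 and 3 (14.99% and 17.8%) lay below every L67 library (18.4%, 18.6% and 18.1%) and every L82-G17 library (18.3%, 20.4% and 21.3%). The other comparisons still overlapped without replicate 1.

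**Figure D5:**
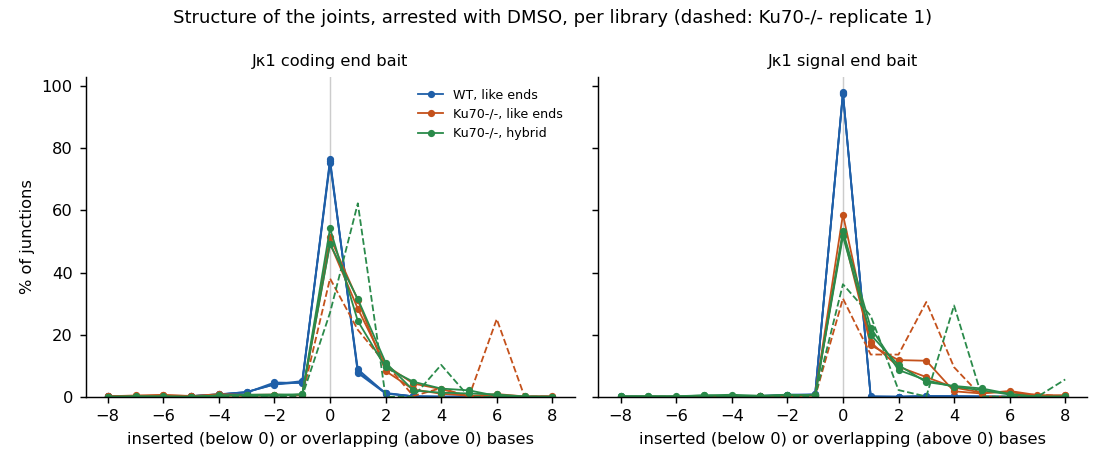
Share of junctions at the 13 sites (y axis, percent) by overlap of bait and prey (x axis, bp) in the DMSO libraries. Panels are split by bait, and like ends (CE to CE or SE to SE) and hybrid joints are lines of different colours in the same panel. Inserted bases have negative values and shared bases positive values, with direct joints between them. Each line is a library and kind of joint, and dashed lines are Ku70-/- DMSO replicate 1. WT is drawn only for like ends. Direct joints lead in WT, and Ku70-/- libraries have more joints with shared bases.

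Insertions in WT coding joints often began with the palindromic bases that a hairpin leaves when it is opened off its tip. The Jκ1 coding end printed above ends in ccac, so its palindromic bases are GT. Of 23725 insertions with DMSO, GT made up 14.6% and G 12.8%. Where the Jκ1 end was whole, 85.7%, 85.3% and 85.8% of insertions began with G and 48.1%, 48.1% and 50.1% with GT; where it was trimmed, 38.8%, 38.7% and 39.8% and 7.96%, 6.40% and 9.51%. The values did not overlap between whole and trimmed ends. In Ku70-/- whole Jκ1 ends were rare (0%, 1.10% and 0.660% of junctions), and insertions at trimmed ends began with G in 10.0%, 25.1% and 22.1%. The few insertions at whole ends mostly did so there too: of 109 in replicate 2 with DMSO, copies of 12 distinct joints, all began with G and 99.1% with GT, while replicate 3 held 1 such insertion and replicate 1 none. With the inhibitors the Ku70-/- libraries held 10 to 120 insertions at whole ends, from 3 to 12 distinct joints each, and 73.7 to 99.2% of them began with G, on either side of the WT values.

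Igkv4-58 and the site at 69631399, which share the coding end cattca printed above and 96 of 100 coding bases, had the fewest direct coding joints in WT: 56.3% ± 2.19 and 57.1% ± 3.87, whereas the other 11 sites had 70.9 to 86.7%. Their insertion shares (16.6% ± 1.89 and 14.9% ± 1.68) lay within the range of the others (8.96 to 17.1%). In Ku70-/- the direct shares of the sites ran from 32.8 to 70.9% with SDs up to 33.3, wider than the gaps between sites.

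The region was set beside the rest of the locus within the same 9 arrested libraries of a genotype and bait (exact sign-flip test over libraries, whose smallest p is 0.00391; 100 comparisons, smallest adjusted p 0.0118; these comparisons were chosen after the data were seen). In Ku70-/- its hybrid share exceeded that of the deletional sites, which point the other way, by 11.4 points from the CE bait and 31.8 points from the SE bait, in 9 of 9 libraries each (exact p = 0.00391, adjusted 0.0118). Against the other inversional sites the difference was -1.27 points (exact p = 0.211) and -0.507 points (p = 0.633). Against the 21 sites of the distal neighbours, the other side of sTAD4, it was 4.81 points higher from the CE bait (8 of 9 libraries, adjusted p = 0.0186) and 7.64 points lower from the SE bait (9 of 9, adjusted p = 0.0118). Of these 21 sites 4 are deletional, and against the 17 inversional ones alone the values were 4.41 points higher (8 of 9, adjusted p = 0.0186) and 8.22 points lower (9 of 9, adjusted p = 0.0118).

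In WT joint structure did differ from that of the other inversional sites. Direct joints were more frequent in the region by 6.001 points (CE) and 4.12 points (SE), higher in 9 of 9 libraries each, and insertions were less frequent from the CE bait by 1.08 points, in 9 of 9 libraries (exact p = 0.00391, adjusted 0.0118 for each). CE bait junctions within 10 bp of the break, hybrids included, were less frequent than at the 18 sites of the proximal neighbours by 1.89 points in WT and 11.7 points in Ku70-/-, lower in 9 of 9 libraries (adjusted p = 0.0118 each), and by 9.63 points without replicate 1. Hybrids made up 35.1% of the Ku70-/- CE bait junctions at the sites of the region and 38.8% at those of the proximal neighbours. Against the distal neighbours these differences were -0.0652 (exact p = 0.305) and -1.81 points (p = 0.613). Direct joints in WT differed from those there by -2.44 points from the CE bait (higher in 0 of 9 libraries) and by 3.23 points from the SE bait (higher in 9 of 9; adjusted p = 0.0118 each), and with the inversional sites there alone by -2.59 and 1.97 points (0 and 9 of 9, adjusted p = 0.0118 each).

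In cycling Ku70-/- cells many junctions of the region lay away from the 13 sites: 48.2%, 42.1% and 34.4% from the CE bait and 21.2%, 38.7% and 19.6% from the SE bait. In arrested Ku70-/- libraries this was 0.0247 to 4.34% and in WT, cycling cells included, at most 2.00%. Some of these junctions were the same joint in many libraries. A CE bait joint at 69598454, 363 bp from the Igkv4-53 site, with 6 bases of Jκ1 lost and 8 bp inserted, was present in all 12 Ku70-/- CE libraries (983 junctions, 25 to 119 a library, 98 to 110 in cycling cells) and in none of the WT libraries. An SE bait joint at 69537856, 568 bp from the Igkv4-56 site, was present in 11 of 12 Ku70-/- SE libraries (577 junctions) and in none of WT. Joints found in all 3 cycling libraries made up 26.4 to 26.8% of the cycling Ku70-/- junctions of the region from the CE bait (15 joints) and 15.7 to 38.0% from the SE bait (6 joints), so the high cycling shares of the region given above include them.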

How the data were processed

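Per the study's methods, the authors demultiplexed and trimmed the reads, sampled 500000 read pairs a library (Seqtk), called junctions on the mm9 genome (TranslocWrapper) and kept duplicates; the submitters' processing notes also name Bowtie2 (versions not given in the sources used here). The deposited files hold other values than counts per feature: a row per junction, with the prey position and strand, the bait end and the alignment of bait and prey along the read. Each of the 48 libraries was sequenced in 2 flow cells, and shares of the region differed between them by at most 0.929 points in arrested libraries.

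Here each row was taken as 1 junction. Groups came from the labels; replicate numbers are names in accession order. Prey ends are coding or signal by strand. Joints with over 1 base shared by bait and prey were called microhomology, those with 1 shared base were kept apart, those with extra bases were insertions and the rest direct; overlaps or gaps up to 20 bp between bait and prey were classed. The mm9 genome and its annotation gave sequences and names, and RefSeq (GRCm38.p6) gave gene order. Shares were compared by exact permutation tests, and site usage by limma 3.58.1 in R 4.3.3 with Benjamini-Hochberg adjustment over all sites and a threshold of 0.05; everything else used Python 3.11.15 with pandas 2.3.3. The limma script was tested on simulated counts with a set spread, not that of the libraries, so the test checks the script and not what size of change could be detected. Full values are given for the 8 sites with at least 1% of the locus junctions in an arrested group, ranges or means for the other 5, and every called member is named. The region, its members and the tests were chosen with earlier results of these data known. Alternatives counted each junction once, changed denominators, windows, pseudocount, filter or the libraries in the fit, or left out each library; the comparisons with neighbouring sites and the fit without low-complexity libraries were chosen after seeing the data. Junctions without molecular identifiers are not independent molecules, so depth gives only an upper bound on precision.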

Additional observations from a re-analysis of the deposited data

How the results depend on the processing

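Of 63 differences in shares (the share within 10 bp of WT from the SE bait left aside), 28 were without overlap between the groups, and 67 of 79 alternatives to these kept no overlap. Between the 2 flow cells 1 difference in the region share changed sign, that of L82-G17 in Ku70-/- CE (0.637 and -0.0377). No paired analysis was made, because the replicate numbers only follow the listed order and the labels do not say which libraries share a sample. Replicate 1 of Ku70-/- with DMSO was of low complexity for both baits, but whether its CE and SE libraries share a sample is not given. Values below are points unless counts are named, and the cause of each change was not tested.

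Counting each junction once turned the sign of these values: the region share with L67 in Ku70-/- CE (0.419), the hybrid share with L67 in Ku70-/- CE (2.39), microhomology with L82-G17 in Ku70-/- CE (-0.974; with overlaps from 1 bp, -4.44), insertions with L67 in WT CE (-0.180), Ku70-/- CE (-5.40), WT SE (-1.33) and Ku70-/- SE (-2.62), insertions with L82-G17 in Ku70-/- CE (-2.84) and SE (-5.07), and direct joints in Ku70-/- against WT (15.7 CE, 7.19 SE). The genotype difference of the inhibitor effect on the region share became 0.0666 (L67) and 1.53 (L82-G17) for CE. The region share of Ku70-/- against WT kept its sign but moved from -1.55 to -3.96 (CE) and from 1.91 to 2.60 (SE), without overlap. With all junctions as the denominator, it was -4.24 for CE, and the region share was -0.477 for Ku70-/- against WT SE and 2.06 for DMSO against cycling in Ku70-/- SE.

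Leaving out 1 library turned the sign of some differences from DMSO. For L67 in Ku70-/- CE the ranges were -3.30 to 2.04 (hybrids), -3.62 to 2.04 (within 10 bp), -3.30 to 1.97 (microhomology) and -0.540 to 9.29 (direct). For L82-G17 in Ku70-/- they were -1.67 to 3.61 (microhomology, CE), -3.28 to 6.55 (direct, CE), -0.451 to 0.832 (insertions, SE) and -1.56 to 9.10 (direct, SE). In WT they were -0.156 to 0.0285 (hybrids, L82-G17, SE) and -0.230 to 0.455 (insertions, L67, CE), and insertions in Ku70-/- against WT SE ranged from -0.559 to 0.725. The genotype difference of the L67 effect ranged from -2.34 to -0.770 for CE and from -0.291 to 0.857 for SE. For CE the exact permutation test gave p = 0.025 without Ku70-/- DMSO replicate 2 or 3, where the low-complexity replicate 1 was kept. Without replicate 1 the CE difference was -0.770 (p = 0.13, exact permutation test).

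Members called by limma also depended on the fit; the share of all sites called in the same fit follows each count. Ku70-/- against WT CE called 2 (14.4%), but 3 (40.6%) counted once, 1 with pseudocount 0.5 (10.8%) or a filter of 200 (8.7%), 0 with these groups alone (7.14%) or without low-complexity libraries (9.09%), 7 (40.5%) with array weights, and 0 to 5 (7.21 to 27.9%) without 1 library. The SE count of 2 (17.3%) became 3 (24.5%) with pseudocount 5, 9 (55.5%) with weights, 1 (9.09%) without low-complexity libraries, and 1 to 3 (8.26 to 31.8%) without 1 library. DMSO against cycling in WT CE called 0 (20.7%), but 3 (34.4%) counted once, 2 (28.8%) with pseudocount 5, 1 (22.5%) with a 100 bp window, 3 (32.7%) with these groups alone, 5 (47.7%) with weights, 4 (37.3%) without low-complexity libraries, and 0 to 1 (15.3 to 21.6%) without 1 library. In WT SE the 6 called (44.5%) became 7 (45.9%) counted once, 9 with pseudocount 5 (47.3%), these groups alone (50.9%) or weights (51.8%), 8 (55.5%) without low-complexity libraries, and 4 to 6 (33.9 to 38.2%) without 1 library. In Ku70-/- CE the 3 called (42.3%) became 1 (39.6%) with pseudocount 5, 2 (39.6%) with weights, 0 (1.08%) with these groups alone, 5 (52.7%) without low-complexity libraries, and 2 to 5 (34.2 to 52.7%) without 1 library. In Ku70-/- SE the 2 called (33.6%) became 3 (40.9%) with pseudocount 5, 1 counted once (29.7%) or with a 100 bp window (32.7%), 0 (9.57%) with these groups alone, and 1 to 4 (29.1 to 39.1%) without 1 library. L82-G17 against DMSO called 0 in each, but 6 (WT CE, 35.7%) and 1 (WT SE, 9.73%) with these groups alone, 4 in each with weights (32.4% and 17.3%), and in Ku70-/- CE 1 (6.25%) counted once and 2 (14.4%) with weights. SE against CE bait in WT called 1 (7.27%), but 6 (32.1%) counted once, 10 (58.8%) with these groups alone, 11 (56.4%) with weights, 2 (18.0%) without low-complexity libraries, and 0 to 1 (5.45 to 6.36%) without 1 library. In Ku70-/- it called 0 (6.36%), but 2 (10.9%) with pseudocount 5, and 0 to 4 (0 to 21.6%) without 1 library.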

Other observations

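The annotation lists 2 further V segments in the region that gave no break site. Igkv4-63 (69327938 to 69328223, minus strand) has the heptamer CACAGTG, but its next bases at the place of the nonamer read AAAAAACCT, not ACAAAAACC. It held 23, 11 and 9 junctions in the WT CE libraries with DMSO, or 0.00404% ± 0.00202 of the locus (n = 3). Among the DMSO groups its share was largest in the Ku70-/- SE libraries, with 0, 143 and 29 junctions (0.0391% ± 0.0520, n = 3). Replicate 2 there held 104 copies of a single joint inside the gene. With L67, WT SE replicate 2 held 219 copies of a single joint at 69327942, also inside the gene (0.0705% of the locus). Replicate 3 of that group held 31 junctions at this position. Igkv4-62 (69349813 to 69350091) held 234, 161 and 193 junctions in the WT CE libraries with DMSO, or 0.0557% ± 0.00897, below the 0.451% of the least used member, Igkv5-48. Its annotated end is followed by CCATCCA and then by cacagtg, so the annotation stops 7 bases short of the heptamer.

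A further set of exact joints recurred in Ku70-/- alone. From the CE bait, joints at 69648705 (2055 bp from the Igkv4-50 site; 8 of 12 libraries, 269 junctions), 69357630 (9256 bp from the Igkv4-61 site; 11 of 12 libraries, 257 junctions) and 69450283 (36 bp inside Igkv4-58; 10 of 12 libraries, 254 junctions) were absent from WT. In Ku70-/- the joints found in all 3 cycling libraries held 0.292 to 1.75% of the junctions of the region with DMSO from the CE bait, and 0.00617 to 1.11% from the SE bait.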
